A study of Mus musculus with 16 samples.

Results

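miR-6240 and miR-2137 are mouse microRNA (miRNA) database entries whose standing as miRNAs has been doubted. Their rows in the small RNA table were selected by name, all arms included, which gave 4 rows of 2386 miRNA arms: mir-6240-3p, mir-6240-5p, mir-2137-3p and mir-2137-5p. An arm is the strand of the hairpin, 5′ or 3′, that a read was assigned to. The entries were picked because they were abundant in exosomes and scarce in cells, so the exosome and cell values below describe that choice and support nothing by themselves. Of the 4 rows, 3 had reads and passed a minimum value of 10 in at least 1 group. The fourth, mir-2137-5p, had 0 reads in all 4 groups, as did 631 arms of the table in all.

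The libraries came from AFT024, a stromal line that supports haematopoietic stem and progenitor cells, and BFC012, a stromal line that does not, both from C57BL/6 fetal liver at 14.5 dpc (days post coitum). The 4 small RNA groups were the cells of each line and the exosomes that each line secreted, with no treatment named. Each group has 2 samples in the labels but 1 merged value in the deposited table, and the exosome RNA was pooled from several extractions and split for technical sequencing replicates. Each kind of stroma was represented by 1 line, so a difference between supportive and non-supportive stroma cannot be told apart from one between these lines. No test between groups was possible, and every interval given below is a 95% interval that covers counting error only. In bulk libraries, fewer cells or vesicles that carry an RNA and less of it in each cannot be told apart.

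A miRNA is cut from a hairpin precursor by Drosha in the nucleus and by Dicer in the cytoplasm, and 1 strand of the resulting duplex is usually kept by an Argonaute protein. Bases 2 to 8 of the mature strand, the seed, pair with target messenger RNAs. Exosomes are small vesicles that cells release from multivesicular bodies, and they carry miRNAs next to pieces of ribosomal, transfer, vault and Y RNA. Small RNA libraries catch any short RNA with suitable ends, and some database entries have been questioned because their letters resemble pieces of such longer RNAs. The sequence of the large ribosomal RNA was not used here, so whether these reads came from it was not tested.

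The mature sequences are shown because miR-6240 is unusually long and miR-2137 unusually rich in G and C for a miRNA. They are given 5′ to 3′ from RefSeq (GRCm38.p6), with the seed in capitals.
miR-6240: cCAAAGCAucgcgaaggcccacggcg
miR-2137: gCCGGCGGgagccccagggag
Each hairpin is shown with its mature sequence in capitals, so that the position of the mature strand and what surrounds it can be seen.
Mir6240 hairpin: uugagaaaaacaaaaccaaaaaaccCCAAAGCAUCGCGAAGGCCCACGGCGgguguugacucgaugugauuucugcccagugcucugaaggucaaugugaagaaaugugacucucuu
Mir2137 hairpin: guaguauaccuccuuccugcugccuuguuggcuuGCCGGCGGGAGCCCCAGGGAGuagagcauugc

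The Mir6240 hairpin lies at chr5:114851948-114852064 on the plus strand and has 117 bases. Its mature sequence takes bases 26 to 51, in the 5′ part of the hairpin. The table names it with no arm, and that its letters are those counted in the row mir-6240-5p was not tested. No mature sequence is printed for mir-6240-3p or mir-2137-5p, and the sequences of the reads themselves were not used here. The mature miR-6240 has 26 bases, against a median of 22 over 1679 mature names of the table, and 14 names are at least as long. Its GC content is 69.2%, against a median of 52.2%. Its seed, CAAAGCA, is shared with 1 other mature sequence, miR-330-3p, which is otherwise different (miR-330-3p: gCAAAGCAcagggccugcagaga). In the GENCODE annotation of GRCm38, the Mir6240 locus overlapped no other gene, and the nearest one, 4930519G04Rik, began 1600 bases downstream on the same strand.

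The Mir2137 hairpin lies at chrX:72992079-72992144 on the plus strand and has 66 bases. Its mature sequence takes bases 35 to 55, in the 3′ part, and has 21 bases. GC content was 85.7%, and 8 of the 1679 mature names were as rich in G and C. No other mature sequence of the table has its seed, CCGGCGG. The locus lies in an intron of Zfp185, a LIM domain gene transcribed from the same strand, and overlaps none of its exons.

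The predicted folding differed between both hairpins. With RNAfold, the Mir6240 hairpin had a minimum free energy of -24.7 kcal/mol, or -0.211 kcal/mol per base, against a median of -0.406 over 1005 hairpins of the table. Only 15 of the 1005 hairpins, 1.49%, had a fold as weak per base. In that structure 73.1% of the mature bases were paired, against a median of 81.0%, and 406 of 1635 mature sequences had as few. Mir2137 reached -24.6 kcal/mol over its shorter hairpin, which is -0.373 kcal/mol per base, and 35.6% of hairpins folded as weakly. Its mature bases were paired at the median share of 81.0%. Weak folding was thus a feature of Mir6240 and not of Mir2137.

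**Figure D1:**
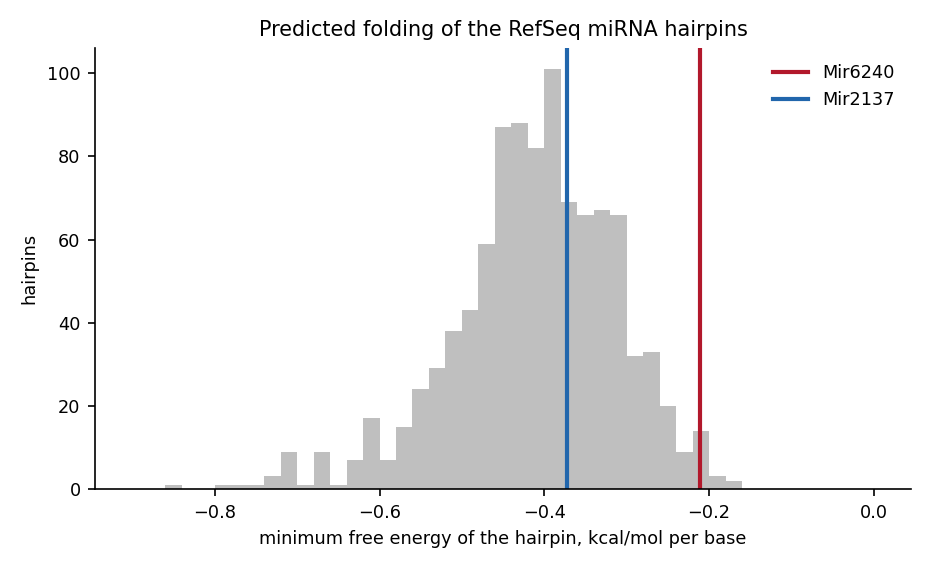
Histogram of the predicted minimum free energy per base (x axis, kcal/mol per base) over 1005 RefSeq mouse miRNA hairpins (y axis, number of hairpins), with vertical lines for Mir6240 and Mir2137. Mir6240, at -0.211, lies in the weak tail on the right, while Mir2137, at -0.373, lies within the bulk.

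The letters of both mature sequences were searched on both strands of 141767 annotated transcripts. Apart from their own genes, 0 transcripts held either sequence exactly, with up to 1 mismatch, or over its first 18 bases, and the longest run shared with another transcript was 15 bases for each. Among them, 3910 transcripts were structural non-coding RNAs such as snoRNA, snRNA, scaRNA, Y RNA and rRNA. As a background, 27 of the 1679 mature names, 1.61%, had an exact match in one of those. Unlike the search for the entries, this background also counts a miRNA's own gene where that is annotated as a structural RNA, as for Mir1839, Mir3068 and Mir677. The 354 rRNA transcripts searched had a median length of 116 bases, and only 1 was longer than 148 bases, at 1849, so the result covers mainly small rRNAs. The row mir-6240-3p, which held most miR-6240 reads in every group, had no mature sequence here and was not searched.

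The miRNA reads recovered from the deposited values numbered 1120450 in AFT024 exosomes, 1247068 in BFC012 exosomes, 17293776 in the AFT024 cell library and 17547485 in the BFC012 one. A count of 3 reads, the 1-sided upper limit that a count of 0 allows, was a share of 0.000268% and 0.000241% in the exosomes and 1.73e-05% and 1.71e-05% in the cells. These are also the limits for mir-2137-5p. In the polyA libraries of the same cells, 5 genes of hepatocytes, blood or epithelium (Alb, Afp, Ptprc, Hbb-bs and Epcam) lay between 0 and 0.948 RPM (reads per 1000000 library reads). Of 4 stromal genes, Col1a1, Vim and Sparc reached 508 to 2591 RPM, while the collagen chain Col1a2 was at 43.6 in the cells of AFT024 and 0.335 in those of BFC012.

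The 3′ arm of miR-6240 was the most abundant of the miR-6240 and miR-2137 rows in every group. mir-6240-3p had 13684 reads in the exosomes of AFT024, 10330 in those of BFC012, 846 in the AFT024 cell library and 1409 in the BFC012 one. As a share of all miRNA reads this was 1.22% (interval 1.20 to 1.24%) in AFT024 exosomes and 0.828% (0.813 to 0.844%) in BFC012 exosomes. In the cells the share was 0.00489% (0.00457 to 0.00523%) for AFT024 and 0.00803% (0.00762 to 0.00846%) for BFC012. Both exosome values lay above both cell values, and the intervals of no pair of groups overlapped. In the deposited normalized scale the values were 36601, 27468, 301 and 497 in the same order.

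By rank, mir-6240-3p stood among well-known miRNAs in exosomes. It was arm 18 of the table in AFT024 exosomes, between mir-27a-3p with 13900 reads and mir-221-3p with 13558 reads, and its Poisson interval of 13456 to 13915 reads held both neighbours. In BFC012 exosomes it was arm 26, below mir-5099-3p with 10955 reads and above mir-423-3p with 9898 reads, and its interval of 10132 to 10531 reads held neither. In cells it ranked 235 in AFT024 and 195 in BFC012.

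The 5′ arm of miR-6240 had 3653 reads in AFT024 exosomes, 6103 in BFC012 exosomes, then 240 and 529 in the respective cells. The shares were 0.326% (0.316 to 0.337%), 0.489% (0.477 to 0.502%), 0.00139% (0.00122 to 0.00157%) and 0.00301% (0.00276 to 0.00328%). Among the exosomes this arm was thus higher in BFC012, the reverse of its partner arm. It ranked 62 and 45 in the exosomes of AFT024 and BFC012, next to mir-222-3p with 3747 reads and mir-30a-5p with 6155 reads, both within its counting interval. In cells it ranked 330 and 253.

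mir-2137-3p was the rarest of the 3 rows with reads. It had 574 reads in AFT024 exosomes and 891 in BFC012 exosomes, but only 7 and 26 in the respective cells, although the cell libraries were the deeper ones. The exosome shares were 0.0512% (0.0471 to 0.0556%) and 0.0714% (0.0668 to 0.0763%). The cell shares were 4.05e-05% (1.63e-05 to 8.34e-05%) and 0.000148% (9.68e-05 to 0.000217%). With 7 reads, the Poisson interval in AFT024 cells was 2.81 to 14.4 reads, and any ratio to that group is imprecise. Its exosome ranks were 134, between mir-345-3p and mir-21a-3p, and 111, level with mir-224-5p at 891 reads.

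Summed over the rows, the doubtful entries made up 1.60% of miRNA reads in AFT024 exosomes and 1.39% in BFC012 exosomes, against 0.00632% and 0.0112% in the cells of the same lines. For scale, the leading arm of both exosome groups, mir-22-3p, took 19.1% and 10.2% of their reads. mir-21a-5p, the leading arm of both cell groups, took 18.2% and 11.0% of theirs.

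**Figure D2:**
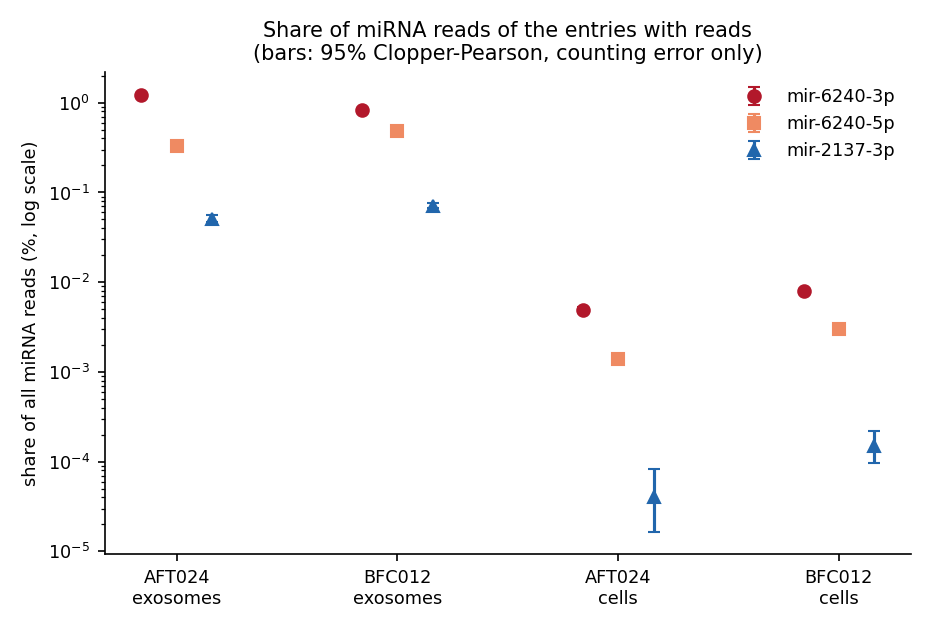
Share of all miRNA reads (y axis, %, log scale) of the 3 rows with reads in the 4 small RNA groups (x axis); bars are 95% Clopper-Pearson intervals for counting error. Each row lies higher in both exosome groups than in both cell groups, and mir-6240-3p reaches 1.22% in AFT024 exosomes.

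Exosome values were set against cell values on the deposited scale, in which the authors divided reads by a size factor. For mir-6240-3p, the AFT024 ratio came to 122 (113 to 130) and the BFC012 ratio to 55.3 (52.3 to 58.5). For mir-6240-5p they came to 114 (100 to 131) and 87.0 (79.6 to 95.2). The largest ratios belonged to mir-2137-3p, at 616 (297 to 1539) and 258 (175 to 398). All 3 rows passed 2-fold higher in exosomes in both lines. Of 818 arms with a value of at least 10, 30.7% did so in AFT024 and 35.6% in BFC012, while 35.6% and 32.8% were lower. In RPM of all miRNA reads the split was 44.1% higher and 17.97% lower in AFT024, and 44.5% and 21.0% in BFC012. At least 64-fold higher, on the log2(value + 1) scale, were 2.32% of arms in AFT024 and 4.16% in BFC012. The rows ranked 4 (mir-2137-3p), 14 (mir-6240-3p) and 16 (mir-6240-5p) of the 818 in AFT024, and 14, 38 and 33 in BFC012. Because the rows were picked on this contrast, nothing is read from these counts and ranks.

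The size of the exosome-to-cell ratio depended on the scale. Taken as shares of all miRNA reads, the ratio of mir-6240-3p became 250 in AFT024 and 103 in BFC012, that of mir-6240-5p 235 and 162, and that of mir-2137-3p 1266 and 482. On the deposited scale the groups have unequal totals: its values sum to 2996866 and 3316025 in the exosomes but to 6156617 and 6189030 in the cells. Every scaling tried put all 3 rows higher in the exosomes of either line. In the authors' deposited tables of AFT024 exosomes against cells, the log2 ratios were 6.66 for mir-6240-3p, 6.57 for mir-6240-5p and 9.00 for mir-2137-3p. For BFC012 they were 5.68, 6.34 and 7.91, and the authors' deposited tables give a q-value of 0 for all of these, which compares merged libraries and not conditions.

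On the deposited scale with no pseudocount, the step from cells to exosomes was steeper in AFT024 than in BFC012 for each row. Dividing the AFT024 ratio by the BFC012 ratio gave 2.20 (2.01 to 2.40) for mir-6240-3p, 1.31 (1.12 to 1.54) for mir-6240-5p and 2.38 (1.03 to 5.53) for mir-2137-3p. All 3 intervals lay above 1, and none holds the spread between samples. For mir-2137-3p the AFT024 ratio rests on 7 cell reads. With a pseudocount of 10, its log2 ratios were 6.95 in AFT024 and 6.96 in BFC012, no longer steeper in AFT024.

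**Figure D3:**
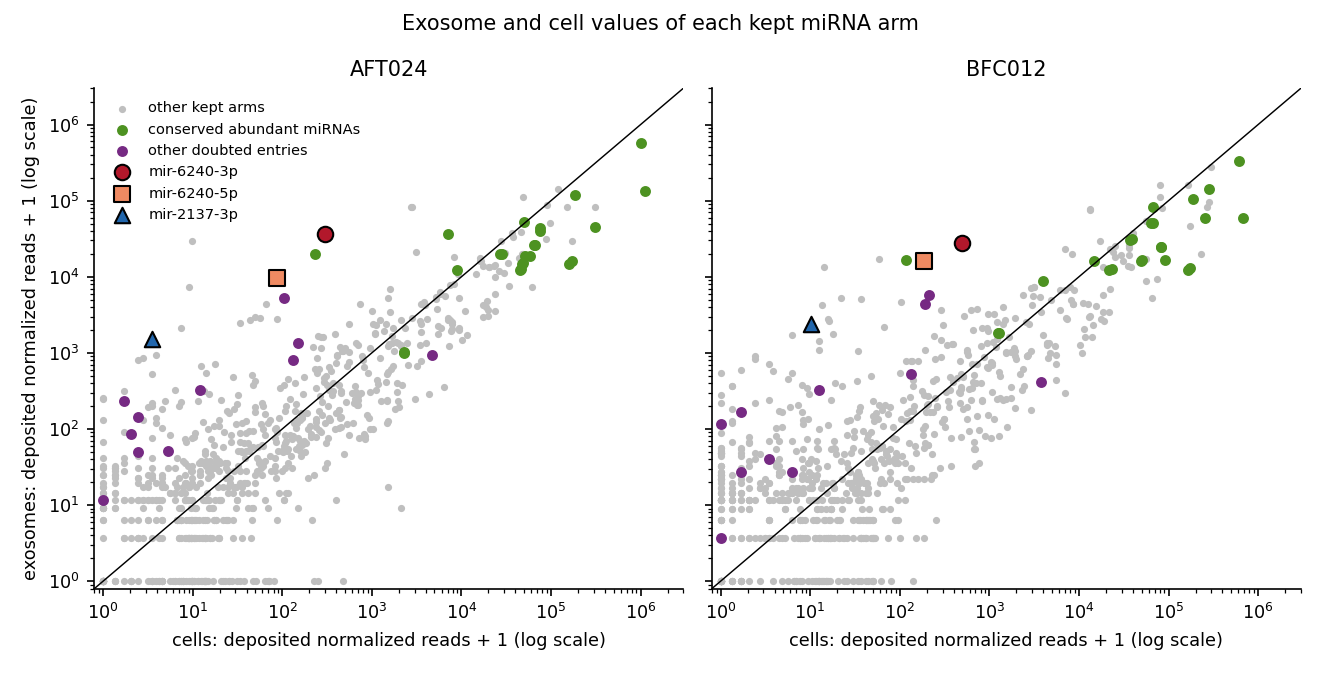
Deposited normalized reads + 1 in exosomes (y axis, log scale) against cells (x axis, log scale) for 818 miRNA arms, with AFT024 on the left and BFC012 on the right; the line marks equal values. The doubtful rows lie far above the line, with mir-6240-3p at 36601 against 301 in AFT024, whereas most conserved abundant miRNAs (green) lie near or below it on this scale; in RPM their median moves to -0.22 in AFT024 and 0.064 in BFC012 on the log2 scale.

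The contrast between the lines had no part in choosing the entries, but it too rests on 1 merged value per group. In exosomes the arms of miR-6240 went opposite ways. mir-6240-3p had a deposited value 1.33 times as high in AFT024 as in BFC012 (1.30 to 1.37), a log2 ratio of 0.41. For mir-6240-5p the ratio was 0.602 (0.578 to 0.627), a log2 ratio of -0.73, and for mir-2137-3p it was 0.648 (0.582 to 0.720), a log2 ratio of -0.63. None of the rows passed 2-fold, a mark that 24.2% of arms passed as higher in AFT024 exosomes and 23.5% as lower. Summed, the entries were nearly level between the exosomes, with a ratio of 1.04 (1.02 to 1.06). In the authors' deposited table, which holds counts and not scaled reads, the log2 ratios of this contrast were 0.41, -0.74 and -0.63.

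In cells all 3 rows were lower in AFT024. The ratio of AFT024 to BFC012 cells was 0.606 (0.556 to 0.660) for mir-6240-3p, 0.458 (0.391 to 0.534) for mir-6240-5p and 0.272 (0.0996 to 0.643) for mir-2137-3p. The latter 2 passed 2-fold lower, which 18.7% of the 818 arms did, and none passed 2-fold higher, which 20.2% did. With the entries and the leading arms mir-21a-5p and mir-22-3p left out of the total, the log2 ratio of mir-6240-5p was -0.83 in place of -1.12, which is short of 2-fold. With a pseudocount of 10, that of mir-2137-3p was -0.62 in place of -1.54, likewise short of 2-fold. mir-6240-3p was therefore higher in AFT024 in exosomes and lower in AFT024 in cells. The authors' deposited table, which holds counts and not scaled reads, gives log2 ratios of -0.74, -1.14 and -1.89 for the cells. Its Fisher q-values of 7.72e-30, 5.41e-24 and 0.00617 compare merged libraries and not conditions.

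The balance of the arms was measured next. The 3′ arm made up 78.9% of miR-6240 reads in AFT024 exosomes, 62.9% in BFC012 exosomes, 77.9% in the cells of AFT024 and 72.7% in those of BFC012. As ratios of 3′ to 5′ reads these were 3.75 (3.61 to 3.89), 1.69 (1.64 to 1.75), 3.53 (3.05 to 4.09) and 2.66 (2.41 to 2.95). Only the exosomes and cells of AFT024 had overlapping intervals. A ratio of arms within a library does not depend on the size factor.

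Between the exosomes of both lines, the arm ratio of miR-6240 differed 2.21-fold (2.11 to 2.32). Of 82 hairpins with at least 20 reads on both arms in every group, miR-6240 included, 21 differed as much or more, which is 25.6%. From cells to exosomes the arm ratio moved 1.06-fold (0.917 to 1.23) in AFT024 and 0.635-fold (0.572 to 0.706) in BFC012, and 93.9% and 75.6% of hairpins moved as much. The arm balance of miR-6240 moved less between cells and exosomes than that of most hairpins compared, and each of its arms had a higher value in exosomes. Both arms were picked on that same contrast, unlike the other hairpins, so nothing is read from these percentages. Between the cells of both lines it differed 1.32-fold (1.11 to 1.58), and 37.8% of hairpins differed as much.

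**Figure D4:**
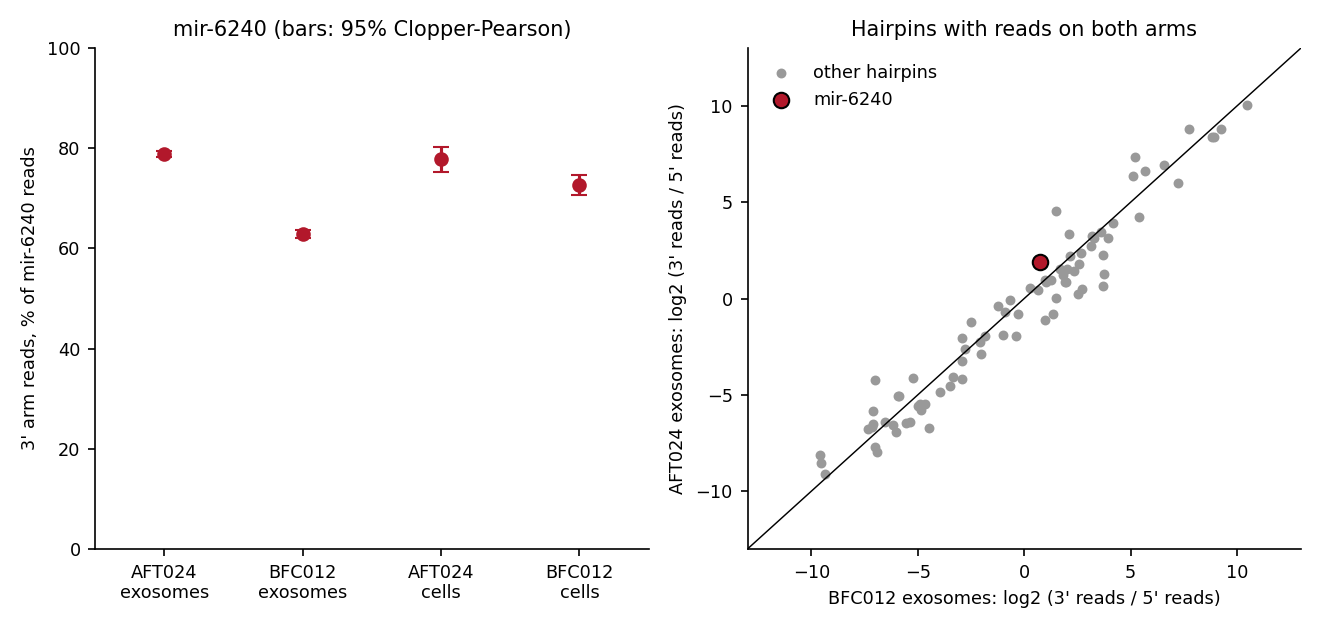
Left, reads on the 3′ arm as a percentage of miR-6240 reads (y axis) in the 4 groups, with 95% Clopper-Pearson bars. Right, log2 of 3′ over 5′ reads in AFT024 exosomes (y axis) against BFC012 exosomes (x axis) for 82 hairpins; miR-6240 lies above the line of equality, by 1.15 on the log2 scale, within the scatter of the other hairpins.

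miR-2137 showed the other extreme, with reads on 1 arm alone. It had 1498 reads over the 4 groups, all of them on the 3′ arm. Of 216 hairpins with both arms listed and at least 1000 reads, 22 had 0 reads on 1 arm, so this pattern occurred elsewhere in the table.

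Other entries that have been doubted as fragments of longer RNAs were taken as a list, chosen with earlier results of these data known. The table holds 26 such rows besides miR-6240 and miR-2137, 17 of them with reads and 11 past the minimum value. Of the 11, 6 lay below 10 in both cell groups and passed through the exosomes alone, so nothing is read from their direction. Of the other 5, 4 were at least 2-fold higher in exosomes in each line, where 30.7% of all arms were higher in AFT024 and 35.6% in BFC012. These were both arms of miR-6236, mir-690-3p with values of 816 and 521 in the exosomes against 131 and 132 in the cells, and mir-709-3p with 326 and 322 against 11.0 and 11.6. The fifth, mir-3968-3p, was lower, with 348 and 155 reads in the exosomes and 13212 and 10816 in the cells. The shares of all arms given here are over 818 arms, 178 of which passed through the exosomes alone, so the sets are not alike. Summed, the 26 rows took 0.309% and 0.355% of exosome reads and 0.0830% and 0.0706% of cell reads. miR-6240 thus held most of the exosome reads of all doubted rows, which came to 1.91% and 1.74%.

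miR-6236, a neighbour of miR-6240 in database numbering, was the next most abundant of these in exosomes. mir-6236-5p had 1964 and 2168 reads in the exosomes of AFT024 and BFC012 and 292 and 599 in the cells, and mir-6236-3p had 506 and 1641 against 420 and 533. Like miR-6240, its 5′ arm was lower in AFT024 cells than in BFC012 cells, at 0.492 (0.426 to 0.567).

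Conserved abundant miRNAs were taken as a comparison. The list of 24 rows, which includes mir-21a-5p, mir-22-3p and let-7a-5p, took 43.0% and 34.4% of exosome reads and 59.3% and 49.2% of cell reads. It was built from 16 mature names with every numbered locus of each as a row, so some miRNAs count more than once. On the deposited scale, 2 were at least 2-fold higher in AFT024 exosomes and 14 lower, where 30.7% of all arms were higher and 35.6% lower, and the median log2 ratio was -1.26. The BFC012 counts were 2 higher and 10 lower, against 35.6% and 32.8% of all arms, and the median was -0.84. In RPM, a scale added after the values were seen, the medians were -0.22 and 0.064, so the BFC012 median changed sign, and the counts became 4 higher and 4 lower for AFT024, then 6 and 5 for BFC012. mir-21a-5p, a growth-associated miRNA, had an exosome-to-cell ratio of 0.120 in AFT024 and 0.0875 in BFC012 on the deposited scale, and of 0.246 and 0.163 as shares of reads.

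Arms with the most similar pattern over the 4 groups were found by Euclidean distance between log2(value + 1) profiles centred on their mean, among arms with a value of at least 100 in a group. The pattern that was compared is the one the entries were picked for. For mir-6240-5p the nearest was mir-5621-5p, at a distance of 0.18, with 49 and 82 reads in the exosomes and 0 and 4 in the cells. mir-5121-3p was nearest to mir-6240-3p, at 0.69, with 1626 and 1741 reads in the exosomes and 183 and 291 in the cells. mir-6240-3p and mir-6240-5p were each the third nearest to the other, at 0.90. The nearest to mir-2137-3p was mir-122-5p, a miRNA of hepatocytes, at 0.84, with 91 and 138 reads in the exosomes and 0 and 1 in the cells. mir-5621-5p and mir-122-5p had so few cell reads that the pseudocount of 1 shapes their profiles and these distances.

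Among the remaining named neighbours, mir-133a-2-3p is a muscle miRNA. mir-142a-5p, a miRNA of blood cells, had 2764 and 1032 reads in the exosomes against 23 and 42 in the cells. mir-15b-3p, mir-8095-5p and mir-5126-3p were the others, with at most 300 reads in a group. The liver gene Alb had 0 and 6 polyA reads in the exosomes and 0 and 1 in the cells. In RPM, as the libraries differ in depth, this was 0 and 0.367 against 0 and 0.0279. Afp, also a liver gene, had 4 and 8 reads against 9 and 34, or 0.443 and 0.489 RPM against 0.229 and 0.948. The blood cell gene Ptprc had 2 and 1 reads against 1 and 2, or 0.221 and 0.0612 RPM against 0.0254 and 0.0558. Hbb-bs, also of blood, had 0 reads in every group. What part another source of these miRNAs has in the exosome values was not tested. Sequences of 4 neighbours are shown, with seeds in capitals, to set their letters beside those of miR-6240 and miR-2137.
miR-5621-5p: aGGAGGUCcuggggccgcccuga
miR-5121: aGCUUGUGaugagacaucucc
miR-5126: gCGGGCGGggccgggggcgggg
miR-142a-5p: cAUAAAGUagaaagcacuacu
Their GC content ran from 33.3% in miR-142a-5p through 47.6% in miR-5121 and 73.9% in miR-5621-5p to 100% in miR-5126, so the neighbours had no GC level in common. The letters of miR-5121 lie within Snord33, a C/D box snoRNA that guides methylation of ribosomal RNA.

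**Figure D5:**
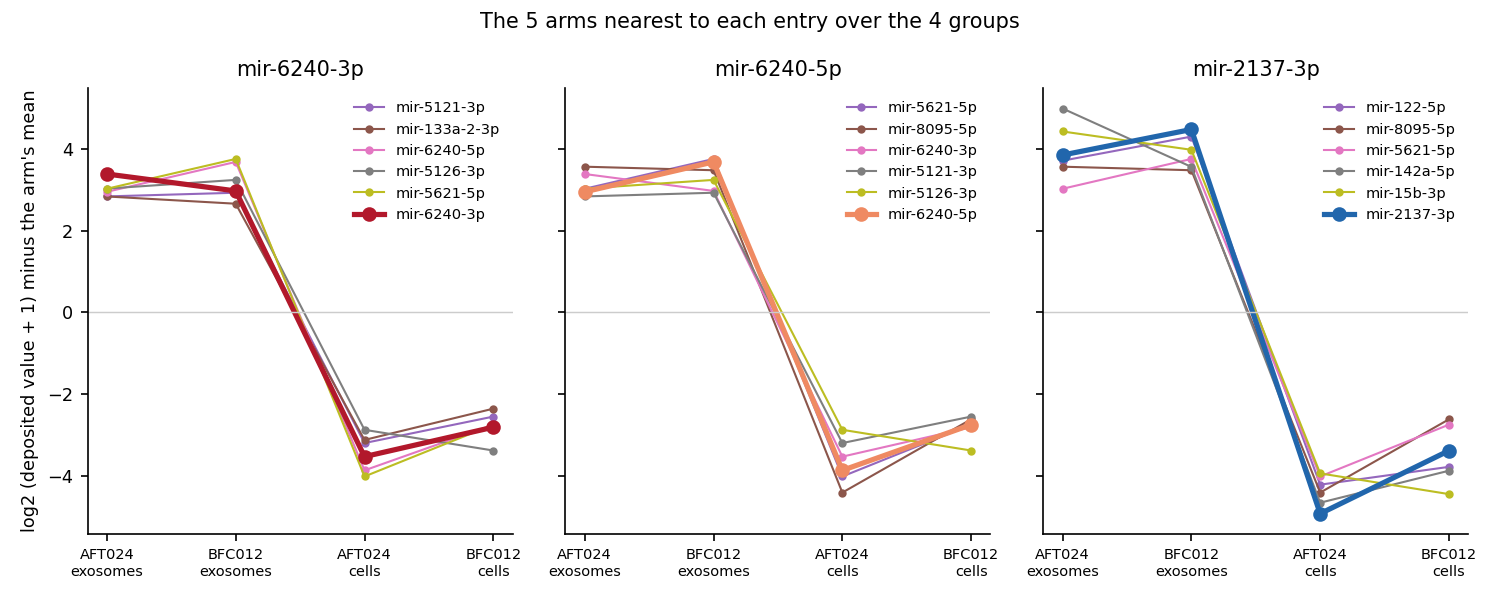
Centred log2(value + 1) profiles (y axis) over the 4 small RNA groups (x axis) of each row with reads (thick line) and its 5 nearest arms (thin lines). All lie above their mean in both exosome groups and below it in both cell groups, and mir-5621-5p follows mir-6240-5p most closely, at a distance of 0.18. With 0 and 4 reads of mir-5621-5p in the cells, the pseudocount of 1 shapes that distance.

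Rows whose letters lie within a structural RNA were counted as well, a set formed after the values were seen, in which a sequence named with no arm was given to an arm by its position in the hairpin. The set includes arms of miR-1839, miR-3068 and miR-677, whose match is their own gene, annotated as a snoRNA or scaRNA. Of the 20 such arms past the minimum value, miR-5121 included, 6 were at least 2-fold higher in exosomes and 5 lower in AFT024, and 7 were higher and 5 lower in BFC012. Over all arms, 30.7% were higher and 35.6% lower in AFT024, and 35.6% and 32.8% in BFC012, so these counts lay near the background. The medians were -0.45 and -0.28, against -0.22 and -0.04 over all arms. mir-5121-3p had the highest log2 ratio of the 20 in AFT024, at 6.04, and mir-3473b-3p, whose letters match the small RNA gene Gm22514, the highest in BFC012. The latter had 1073 and 1908 exosome reads against 157 and 101 in the cells, a log2 ratio of 5.66 in AFT024 and 7.11 in BFC012.

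The polyA libraries, made from RNA of the same groups purified with oligo-dT, list the genes of both entries. Mir6240 had 87 reads in AFT024 exosomes, 44 in BFC012 exosomes, 195 in the AFT024 cell library and 177 in the BFC012 one. In RPM these were 9.63 (7.71 to 11.9), 2.69 (1.96 to 3.61), 4.95 (4.28 to 5.70) and 4.93 (4.23 to 5.72). Exosomes and cells lay far closer here than in small RNA: dividing exosome by cell values gave 1.94 (1.49 to 2.52) for AFT024 and 0.546 (0.383 to 0.763) for BFC012. Between the exosomes the ratio of AFT024 to BFC012 was 3.58 (2.46 to 5.26), and between the cells its interval, 0.815 to 1.24, held 1.

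Reads at the Mir6240 locus did not come with reads of its neighbour. The downstream gene 4930519G04Rik had 0, 0, 1 and 1 reads in the same libraries. On the authors' scale of FPKM, which divides by transcript length and so lifts short genes, Mir6240 had 1133, 428, 1119 and 1109 and ranked 102, 191, 99 and 109 of 24544 genes. The ratio of exosomes to cells in AFT024 was nearly level in FPKM and 1.94 in RPM, and the cause of that gap was not tested.

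Mir2137 had 0 reads in all 4 polyA groups, which at a 1-sided limit of 3 reads allows up to 0.332, 0.184, 0.0762 and 0.0836 RPM. Its host gene Zfp185 had 9 reads in AFT024 exosomes, 239 in BFC012 exosomes, 91 in the AFT024 cell library and 575 in the BFC012 one. In RPM, that was 0.996, 14.6, 2.31 and 16.0. The host was lower in AFT024 than in BFC012 both in cells, at a ratio of 0.144 (0.114 to 0.180), and in exosomes, at 0.0681 (0.0308 to 0.131), and mir-2137-3p had ratios of 0.272 and 0.648 on its own scale. From cells to exosomes Zfp185 did not follow mir-2137-3p, with ratios of 0.431 (0.191 to 0.855) in AFT024 and 0.912 (0.781 to 1.06) in BFC012.

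Structural non-coding RNAs in the polyA libraries varied in which compartment was higher. Vaultrc5, a vault RNA, had 41 and 50 reads in the exosomes and 0 and 0 in the cells. Rpph1, the RNA of RNase P, had 23 and 30 reads in the exosomes, or 2.54 and 1.84 RPM, against 46 and 26 in the cells, or 1.17 and 0.725 RPM. Snora73b, a snoRNA, was the reverse, with 2 and 8 reads in the exosomes and 286 and 247 in the cells. Rn7sk, which holds back transcription elongation, had between 7 and 22 reads in each group. The 45S, 18S and 28S ribosomal RNA genes were not matched by symbol in these tables and were not analysed here.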

How the data were processed

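Small RNA (TruSeq small RNA libraries) and polyA RNA of AFT024 and BFC012 cells and exosomes were sequenced on a HiSeq2500, per the labels' protocols. Per the submitters' processing notes, the tools were TopHat, Bowtie and Cufflinks and the build mm10; how miRNA arms were counted, and on which annotation, is not given in the sources used here. For small RNA, the deposited table holds a normalized signal, reads divided by a size factor, with 1 merged value per group. The deposited tables between lines hold counts, headed normalized reads per the file headers, and the other deposited pairwise tables hold scaled reads; each also gives a log2 ratio with p- and q-values from the authors. FPKM values of polyA RNA were deposited in a further table.

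Whole reads were recovered by dividing each small RNA column by the value of 1 read; 100% of values were whole within 0.01 reads and equal to those of the pairwise tables. Of the columns of values, 0 were left unused. Log2 ratios used a pseudocount of 1, and arms needed a value of 10 in at least 1 of 4 groups. Shares and read ratios have Clopper-Pearson intervals, counts Poisson intervals, at 95%, computed with Python 3.11.15 and scipy 1.17.1; ratios of ratios have intervals from a normal approximation on the log scale. Interval code was tested on simulated data. Folding used RNAfold (ViennaRNA 2.7.2). Sequences came from RefSeq (GRCm38.p6) and transcripts from GENCODE, which shares the authors' build. Both hairpins matched by symbol.

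The entries, lists and rules were chosen with earlier results of these data known. Arms named in the text were the entries, the 3 leading arms of each group, neighbours in rank in exosomes, the 5 most similar arms, and at most 6 of each list; arms within structural RNAs were named after their values were seen. Alternatives in scaling, pseudocount, minimum value and search were tried.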

Additional observations from a re-analysis of the deposited data

Results flagged for a closer look

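mir-6240-3p moved in opposite directions between the lines in the 2 compartments. Its log2 ratio of AFT024 to BFC012 was 0.41 in exosomes and -0.72 in cells. It was picked out because each compartment's value lies on the other side of 0, and the difference was not tested, since each group has 1 merged value. The reads were 13684 and 10330 in the exosomes and 846 and 1409 in the cells. Under the other scalings the exosome value ran from 0.50 to 0.77 and stayed above 0, while the cell value at its weakest was -0.44. mir-6240-5p and mir-2137-3p had negative log2 ratios in both compartments, -0.73 and -0.63 in exosomes and -1.12 and -1.54 in cells.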

How the results depend on the processing

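No exosome-to-cell or AFT024-to-BFC012 ratio of the entries, singly or summed, changed direction under another scaling or pseudocount. Summed log2 ratios of exosomes to cells (6.94 in AFT024, 6.05 in BFC012) became 7.98 and 6.95 in RPM, 7.78 and 6.82 in RPM without the entries, mir-21a-5p and mir-22-3p, and 7.25 and 6.25 with median-of-ratios factors over 374 arms. Between lines, the exosome value (0.06) became 0.20, 0.41 and 0.14 in that order, and the cell value (-0.83) became -0.55 without the leading arms. These shifts follow from the value of 1 read in each scaling. With a pseudocount of 10, mir-2137-3p fell to 6.95 and 6.96, so its step from cells to exosomes was no longer steeper in AFT024. Without mir-21a-5p and mir-22-3p in the total, the summed shares were 2.09%, 1.58%, 0.00964% and 0.0141%.

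Counts of arms past 2-fold moved with the minimum value, since it sets how many arms are counted. Higher and lower in exosomes, AFT024 gave 251 and 291 arms in the main setting, 432 and 500 with no minimum and 113 and 164 at a minimum of 100; BFC012 gave 291 and 268, then 531 and 441, and 134 and 139. In RPM, the lower arms were 147 and 172. Higher and lower in AFT024, exosomes gave 198 and 192, then 378 and 429, and 85 and 79, with 127 lower at a pseudocount of 10; cells gave 165 and 153, then 275 and 243, and 79 and 59. Of the conserved abundant miRNAs, the median log2 ratios of exosomes to cells (-1.26 and -0.84) became -0.22 and 0.064 in RPM, an alternative chosen after seeing the data. The 12 ranks did not move when repeated loci with equal values were counted once. By correlation instead of distance, 1 of the 5 nearest arms was shared for each row.

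No paired analysis was possible because each group has 1 merged column that carries no replicate, and for that reason leaving out a replicate was not run. The precision of mir-2137-3p is set by its 7 and 26 reads in the cells.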
